A study of Mus musculus with 11 samples.

Results

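Nodal, its coreceptor Tdgf1, the receptor Acvr2b and 4 feedback genes of the same pathway were examined in mouse embryonic stem (ES) cells that lacked DNA methyltransferases or had 1 of them put back. They were taken as the rows of the deposited RPKM table (reads per kilobase of transcript, scaled to library depth) that carry the symbols Nodal, Tdgf1, Lefty1, Lefty2, Smad7, Skil and Acvr2b. All 7 were found among 24016 genes. The tests covered 14229 genes, those with a value of 1 RPKM or higher somewhere, and included all 7. Polyadenylated RNA was sequenced in 11 libraries of 129S4/SvJae ES cells, all labelled J1 and all kept with serum and leukaemia inhibitory factor (LIF) on irradiated mouse embryonic fibroblasts as feeders. Wild-type cells (WT) had 1 library. TKO cells lacked Dnmt1, Dnmt3a and Dnmt3b (1 library), and DKO cells lacked Dnmt3a and Dnmt3b but kept Dnmt1 (1 library). Dnmt3a1 (the long isoform of Dnmt3a), Dnmt3a2 (the short isoform) or Dnmt3b1 had been put back into each of them. Of these lines, TKO with Dnmt3a1 and TKO with Dnmt3a2 were sequenced as 2 libraries, the other 4 as 1. Below, the 6 libraries built on TKO are the TKO family and the 4 built on DKO the DKO family. Whether both libraries of a line stem from different cultures is not labelled, so the p-values reflect the scatter among these samples, which may be technical. Each genotype is a single line, and a difference between lines cannot be told apart from one between genotypes.

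Nodal is a secreted ligand of the transforming growth factor β family. With the coreceptor Tdgf1 (Cripto) it binds type I and type II activin receptors, of which Acvr2b is a type II receptor, and the receptors phosphorylate Smad2 and Smad3. With Smad4 and Foxh1 these switch on target genes that include Nodal itself and its own inhibitors: Lefty1 and Lefty2, secreted antagonists of Nodal and its coreceptor; Smad7, which blocks the receptors; and Skil (SnoN), which represses Smad-driven transcription. In ES cells the pathway is active, and in the embryo it patterns the epiblast and induces mesoderm and endoderm. Dnmt3a and Dnmt3b methylate cytosines in CpG dinucleotides, and Dnmt1 copies that methylation after replication.

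Library depths, estimated from the step size of low RPKM values, ran from 21.8 M to 32.8 M reads. Dnmt1 in the TKO family ranged from 6.73 to 12.4 RPKM, below the 71.0 RPKM of WT and the DKO family's 55.9 to 74.5 RPKM. Dnmt3a fell short of WT (22.7 RPKM) in both parents, with 4.24 RPKM in TKO and 3.63 RPKM in DKO. Total Dnmt3b was 45.3 RPKM in TKO against 25.03 in WT and 5.68 in DKO, so that it does not check the TKO label. The levels of the enzymes put back were unequal. Total Dnmt3a read 39.4 and 34.2 RPKM in TKO+Dnmt3a1, 21.8 and 11.1 in TKO+Dnmt3a2, 17.6 in DKO+Dnmt3a1 and 11.4 in DKO+Dnmt3a2. In the lines with Dnmt3b1 it read 10.2 (TKO) and 6.76 RPKM (DKO), and total Dnmt3b read 100 and 29.6 RPKM. All 6 ES cell markers (Pou5f1, Sox2, Nanog, Sall4, Dppa5a, Utf1) were at 1 RPKM or more in every library. The summed level of 12 fibroblast markers was 751 RPKM (TKO) and 575 RPKM (DKO) in the lines with Dnmt3b1, 29.7 RPKM in DKO+Dnmt3a2, and between 112 and 246 RPKM in the other 8 libraries. The 11 macrophage markers summed to 299 and 273 RPKM in both Dnmt3b1 libraries, to 12.4 RPKM in DKO+Dnmt3a2, where 4 of them were listed at 0, and to 40.2 to 112 RPKM elsewhere. In RNA from whole cultures, fewer cells of a type and less RNA per cell cannot be told apart.

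**Figure D1:**
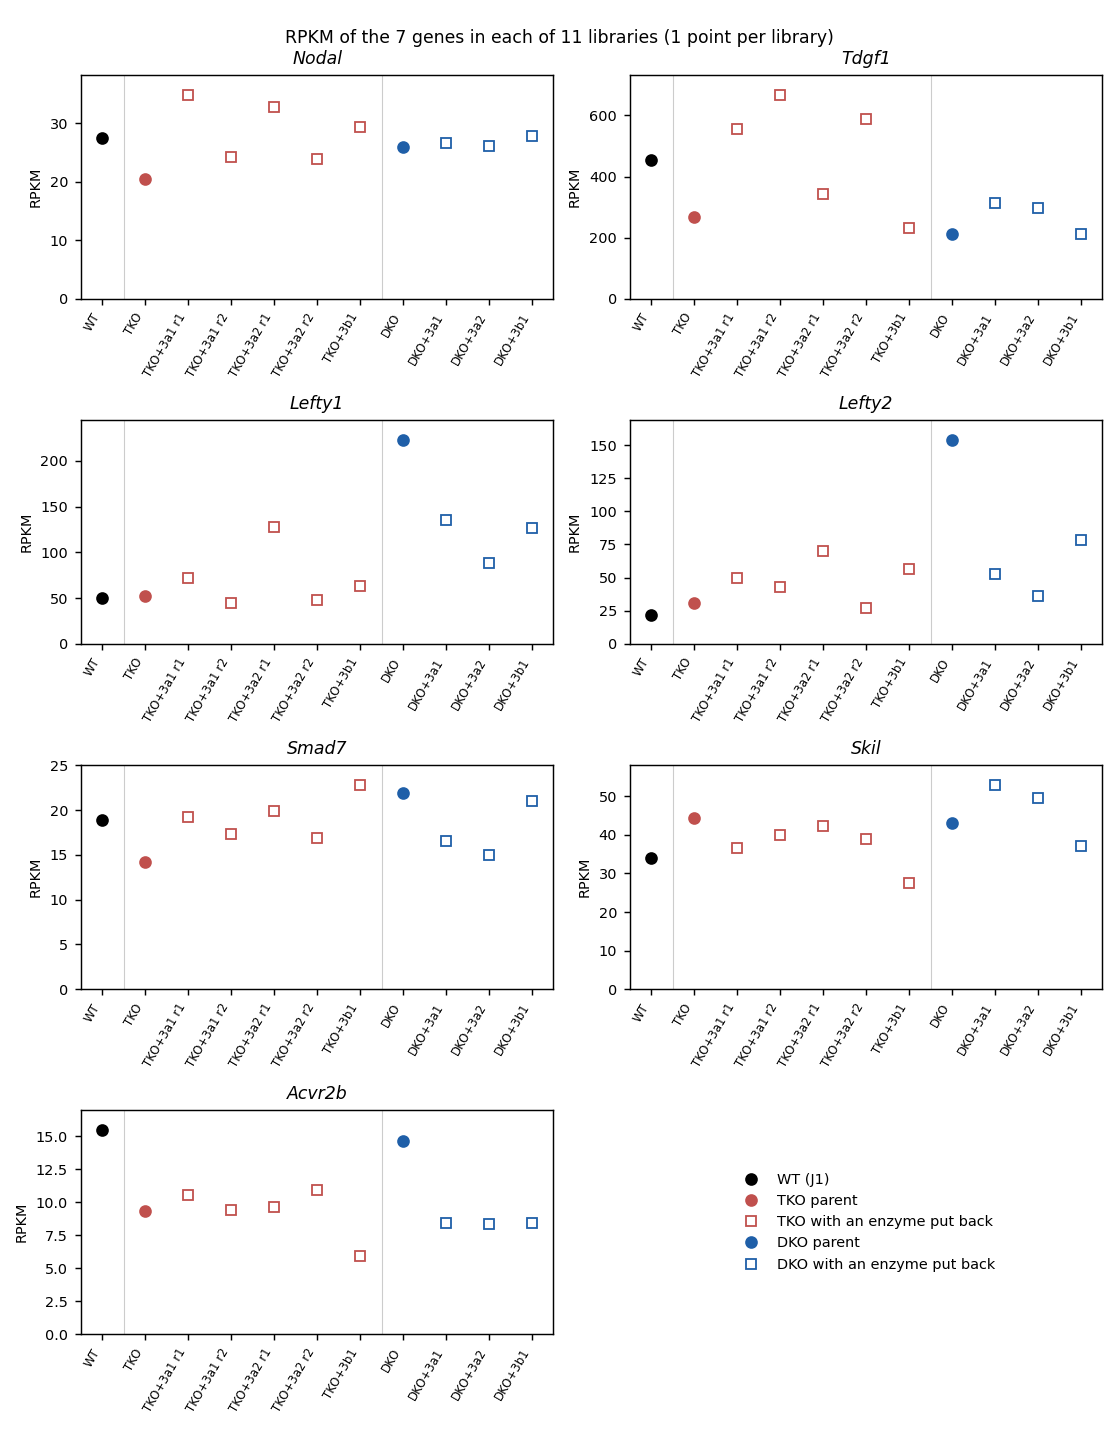
RPKM of each of the 7 genes (vertical axes, starting at 0) in each of the 11 libraries (horizontal axes), 1 point per library; black is WT, red the TKO family, blue the DKO family, filled circles are WT and the parent lines, and open squares are lines with an enzyme put back (r1 and r2 are replicates). Lefty1 and Lefty2 are highest in DKO at 223 and 154 RPKM, Tdgf1 spans 212 to 667 RPKM, and Nodal and Smad7 have the narrowest spread.

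The ligand and its coreceptor are described first. Nodal was at a similar level throughout. It read 27.5 RPKM in WT and 20.5 RPKM in TKO, the lowest of the 11. With Dnmt3a1 in TKO it read 34.8 and 24.3 RPKM (29.6 ± 7.44, SD, n = 2), with Dnmt3a2 32.8 and 23.9 RPKM (28.4 ± 6.26, SD, n = 2), and with Dnmt3b1 29.3 RPKM. In the DKO family it read 25.8 RPKM in DKO, 26.6 with Dnmt3a1, 26.1 with Dnmt3a2 and 27.8 with Dnmt3b1. All 4 DKO family libraries thus lay inside the range of the TKO family, and the 2 libraries of a single TKO line differed more than any 2 DKO family libraries did. The highest level was 1.70 times the lowest, and the range on the log2(RPKM + 0.5) scale (0.75) was wider than that of 25.6% of all genes tested, whose median range was 1.08.

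Tdgf1 was the most abundant of the 7 per unit of transcript length and varied more. WT stood at 453 RPKM, TKO at 269 and DKO at 212 RPKM. In TKO it was 556 and 667 RPKM with Dnmt3a1 (611 ± 78.8, SD, n = 2), 342 and 588 RPKM with Dnmt3a2 (465 ± 174, SD, n = 2) and 231 RPKM with Dnmt3b1. In DKO it was 313 RPKM with Dnmt3a1, 297 with Dnmt3a2 and 213 with Dnmt3b1. Each parent line was thus below WT, each of the 6 libraries with a Dnmt3a isoform was above its own parent, and in neither family was the Dnmt3b1 library above its parent by more than 1 RPKM. Only TKO with a Dnmt3a isoform reached WT, in 3 of 4 libraries. In 50-base windows, 12.5% of the Tdgf1 transcript is identical to the processed pseudogene Tdgf1-ps1, so that part of its reads could be shared.

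CpG dinucleotides are what the deleted enzymes methylate, and the members' upstream sequences differ widely in how many they hold. RefSeq promoter sequences (GRCm38.p6, not the build of the deposited table) were found for 3 of the 7, Nodal, Tdgf1 and Acvr2b. They are shown for the 250 bases before the annotated start, 5′ to 3′ on the gene's strand, with each CpG in capitals. Nodal lies at chr10:61417722-61417971 on the plus strand, Tdgf1 at chr9:110946159-110946408 on the minus strand and Acvr2b at chr9:119401928-119402177 on the plus strand.
Nodal: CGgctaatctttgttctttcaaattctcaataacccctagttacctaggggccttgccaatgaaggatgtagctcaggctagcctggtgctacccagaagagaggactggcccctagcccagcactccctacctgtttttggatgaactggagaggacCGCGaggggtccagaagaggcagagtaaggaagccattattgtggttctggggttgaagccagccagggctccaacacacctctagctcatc
Tdgf1: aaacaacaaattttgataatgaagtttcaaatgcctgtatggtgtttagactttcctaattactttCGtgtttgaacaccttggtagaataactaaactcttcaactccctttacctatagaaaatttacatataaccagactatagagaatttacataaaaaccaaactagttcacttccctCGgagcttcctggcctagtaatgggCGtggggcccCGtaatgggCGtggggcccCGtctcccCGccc
Acvr2b: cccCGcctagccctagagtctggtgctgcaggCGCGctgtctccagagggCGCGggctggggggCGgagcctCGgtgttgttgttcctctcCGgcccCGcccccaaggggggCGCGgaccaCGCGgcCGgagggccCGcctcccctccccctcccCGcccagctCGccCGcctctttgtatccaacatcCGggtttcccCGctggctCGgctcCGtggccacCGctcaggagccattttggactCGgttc
Nodal held 3 CpG in these 250 bases, Tdgf1 7 and Acvr2b 24, against a median of 6 over 27025 promoters. Of all promoters, 29.6% held fewer than Nodal, 53.5% fewer than Tdgf1 and 88.3% fewer than Acvr2b. Most of the Tdgf1 CpGs lay near the start site, and those of Acvr2b were spread over the window. The letters AATCCACA, bound by Foxh1, were in none of the 3 windows of 300 bases (250 before and 50 after the start, both strands) and in 0.87% of all promoter windows. Methylation itself was not measured here.

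The receptor Acvr2b was the least abundant member. It read 15.5 RPKM in WT and 14.7 in DKO, but 9.31 in TKO. In TKO with Dnmt3a1 it was 10.6 and 9.44 RPKM, with Dnmt3a2 9.67 and 10.9 RPKM, and with Dnmt3b1 5.93 RPKM. In DKO it was 8.46 RPKM with Dnmt3a1, 8.34 with Dnmt3a2 and 8.45 with Dnmt3b1. WT and DKO therefore stood above the other 9 libraries, and the 3 enzymes put back into DKO gave nearly the same level. The reads behind the lowest of these values numbered about 270, which gives a counting error of 6.08% (a coefficient of variation, for counting error only).

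Lefty1 and Lefty2 were the members that varied most. Lefty1 was close in WT (50.7 RPKM) and TKO (52.6 RPKM) and stood at 223 RPKM in DKO. It was 72.3 and 44.5 RPKM in TKO+Dnmt3a1 (58.4 ± 19.6, SD, n = 2), 128 and 47.9 RPKM in TKO+Dnmt3a2 (87.9 ± 56.6, SD, n = 2) and 62.9 RPKM in TKO+Dnmt3b1. In the DKO family it was 136 RPKM with Dnmt3a1, 88.0 with Dnmt3a2 and 126 with Dnmt3b1. DKO was the highest library, and the 4 DKO family libraries lay above all TKO family libraries except replicate 1 of TKO+Dnmt3a2.

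For Lefty2, WT was the lowest library at 21.5 RPKM, TKO read 31.1 and DKO 154 RPKM. The add-back lines read 49.7 and 43.2 RPKM (TKO+Dnmt3a1; 46.4 ± 4.57, SD, n = 2), 70.1 and 27.4 RPKM (TKO+Dnmt3a2; 48.8 ± 30.2, SD, n = 2) and 56.4 RPKM (TKO+Dnmt3b1). With DKO as the parent they read 53.0 RPKM (Dnmt3a1), 36.5 RPKM (Dnmt3a2) and 78.3 RPKM (Dnmt3b1). All 3 enzymes thus stood below DKO and above WT, while in the TKO family 4 of 5 add-back libraries stood above the parent. The range over the 11 libraries was wider than that of 90.1% of genes tested for Lefty1 and 94.8% for Lefty2.

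Both antagonists are close copies of each other, and their reads may not have been kept apart. Their coding sequences are 1107 bases long each and 91.9% identical, with 90 mismatches and no gap. The 120 bases in which they differ most (coding positions 46 to 165, counted from the A of the start codon) are shown 5′ to 3′, with the 34 mismatched bases in capitals.
Lefty1: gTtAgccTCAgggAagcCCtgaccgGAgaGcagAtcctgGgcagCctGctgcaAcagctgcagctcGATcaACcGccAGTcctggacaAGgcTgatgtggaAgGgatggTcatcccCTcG
Lefty2: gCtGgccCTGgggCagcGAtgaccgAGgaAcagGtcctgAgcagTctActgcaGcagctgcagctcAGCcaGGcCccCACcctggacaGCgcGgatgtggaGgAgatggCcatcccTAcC
In 50-base windows 17.9% of the Lefty1 transcript and 11.6% of the Lefty2 transcript were shared between them. The remaining windows were not found in another gene, and the treatment of reads that match both genes is not given in the sources used here. The ratio of Lefty1 to Lefty2 levels ran from 1.03 in replicate 2 of TKO+Dnmt3a1 to 2.56 in DKO+Dnmt3a1, so that the values of the pair are not a fixed multiple of each other. Over the 11 libraries their log2 values correlated at r = 0.849 (Spearman 0.764), as a description of libraries that share parent lines and, for this pair, possibly reads.

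**Figure D2:**
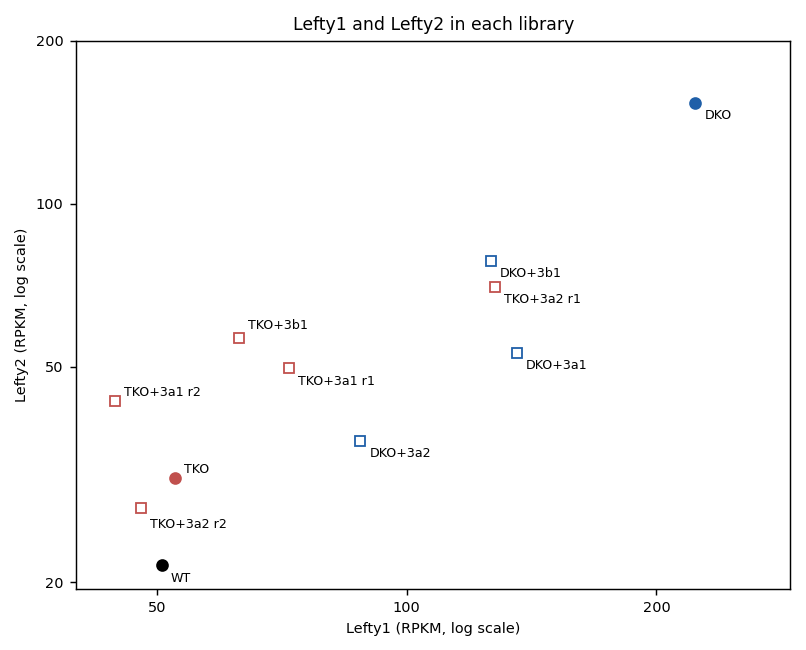
Lefty1 against Lefty2 in RPKM, both axes logarithmic, 1 point per library (black WT, red TKO family, blue DKO family, filled circles WT and parent lines, open squares lines with an enzyme put back, named on the plot without the prefix Dnmt). DKO stands at the upper right with 223 and 154 RPKM, and replicate 1 of TKO+Dnmt3a2 (128 and 70.1 RPKM) lies among the DKO add-back lines, away from replicate 2 (47.9 and 27.4 RPKM).

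The replicates of TKO+Dnmt3a2 were themselves far apart for this pair. Lefty1 differed between them by 1.41 and Lefty2 by 1.34 on the log2(RPKM + 0.5) scale, a larger gap than that of 98.9% and 98.7% of genes tested, for which the median gap was 0.26. Tdgf1 went the other way, with a log2 difference of -0.78 between replicate 1 and replicate 2. In the same 2 libraries the fibroblast markers summed to 226 and 129 RPKM, and Inhba, the activin A subunit, read 22.3 and 7.33 RPKM. Total Dnmt3a, the enzyme put back, read 21.8 and 11.1 RPKM in them. The part of the feeders or of the enzyme level in the Lefty gap was not tested. In TKO+Dnmt3a1 the gap was 0.69 for Lefty1 and 0.20 for Lefty2, with a median of 0.18 over all genes.

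Among the intracellular inhibitors, Smad7 stayed within a narrow range. WT stood at 18.9 RPKM, TKO at 14.2 and DKO at 21.9 RPKM. In TKO it was 19.3 and 17.3 RPKM with Dnmt3a1, 19.9 and 16.9 RPKM with Dnmt3a2 and 22.8 RPKM with Dnmt3b1; in DKO it was 16.5, 15.0 and 21.1 RPKM with the same 3 enzymes. All 5 add-back libraries of TKO were above their parent and all 3 of DKO were below theirs, a pattern whose share over all genes was not counted. Skil was at 33.9 RPKM in WT and at 44.3 RPKM (TKO) and 43.0 RPKM (DKO) in the parents. In TKO it read 36.5 and 39.9 RPKM with Dnmt3a1, 42.3 and 39.0 RPKM with Dnmt3a2 and 27.4 RPKM with Dnmt3b1. In DKO these enzymes gave 52.9, 49.7 and 37.2 RPKM. The Dnmt3b1 library was the lowest of each family for Skil, and both DKO lines with a Dnmt3a isoform were the highest of all.

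What the loss of the enzymes does was asked by comparing each parent line with WT, with 1 library in each arm. The SE and p thus hold no spread of WT, TKO or DKO. They come from the scatter within the 2 replicated TKO lines, moderated over all genes. Values were compared as log2(RPKM + 0.5), which makes changes of low genes smaller than in RPKM. In TKO, Acvr2b was lower by a log2 difference of -0.70 ± 0.24 (SE), Tdgf1 by -0.75 ± 0.42, Nodal by -0.42 ± 0.34 and Smad7 by -0.40 ± 0.23. Skil (0.38 ± 0.20), Lefty2 (0.53 ± 0.60) and Lefty1 (0.05 ± 0.68) were higher in value, Lefty1 with the opposite sign under median ratio scaling (-0.12) or quantile normalization (-0.03). No member passed limma's test at a Benjamini-Hochberg adjusted p under 0.05, where 0.344% of all genes did (0.260% higher, 0.0843% lower). At an unadjusted p under 0.05 stood 1 of 7, Acvr2b, against 17.2% of all genes. The median of the 7 was -0.40, and that of all genes 0.13. The 663 genes of Skil's chromosome, 3, had a median of 0.23 in this comparison, and Skil's 0.38 stands beside that shift. In the same comparison 6 of 6 endoderm markers had higher values in TKO (median 1.65, all 6 at an unadjusted p under 0.05), of which Dab2 rose by 2.79 ± 0.28 (SE; adjusted p 0.0445 by limma). Of the other markers, 10 of 12 for fibroblasts (median 0.46) and 9 of 11 for macrophages (median 0.48) were higher in value, with 0 called. Their part in the members' values was not tested. Among the endoderm markers, Sox17 reached 1 RPKM only in the TKO family.

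In DKO the antagonists were much higher and the coreceptor lower in value than in WT. Lefty2 differed by 2.81 ± 0.60 (SE), which is 7.02-fold on this scale, and Lefty1 by 2.13 ± 0.68, or 4.36-fold. Tdgf1 differed by -1.09 ± 0.42, a fold of 0.469. For these 3 the unadjusted p was 0.00377, 0.0222 and 0.0409, and the adjusted p 0.343, 0.494 and 0.572 by limma, so that none passed over all genes. Nodal (-0.09 ± 0.34), Acvr2b (-0.07 ± 0.24), Smad7 (0.21 ± 0.23) and Skil (0.34 ± 0.20) differed by less than the others. Of all genes 0% were called and 8.30% had an unadjusted p under 0.05, against 3 of 7 here. Both parent lines were compared with the same WT library. For Lefty1 and Lefty2 the wider of the replicate gaps behind the SE was that of TKO+Dnmt3a2 (1.41 and 1.34), not a spread of DKO or WT. Of the feeder-type markers, 11 of 12 for fibroblasts (median 0.95) and 9 of 11 for macrophages (median 1.51) had higher values in DKO, and their part in the Lefty values was not tested.

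**Figure D3:**
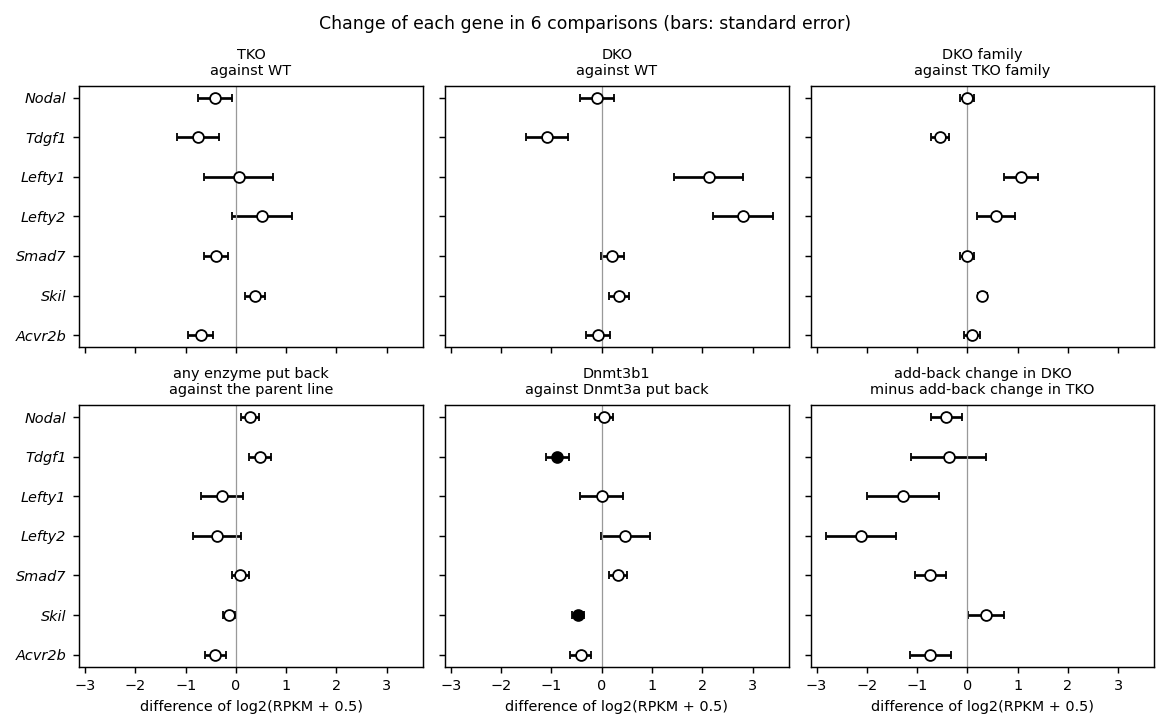
Difference of log2(RPKM + 0.5) for each of the 7 genes in 6 comparisons (horizontal axes, the same in every panel), with bars of 1 standard error; filled points passed an adjusted p under 0.05 over all genes, and open points did not. The 2 filled points are Tdgf1 (-0.89) and Skil (-0.47) for Dnmt3b1 against Dnmt3a put back, and the points farthest from 0 are Lefty1 (2.13) and Lefty2 (2.81) for DKO against WT.

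Whether the genes differ with Dnmt1 present was asked over 10 libraries, 4 of the DKO family against 6 of the TKO family, with the enzyme put back as a second term. Lefty1 was higher in the DKO family by 1.06 ± 0.34 (SE), Skil by 0.30 ± 0.10, and Tdgf1 was lower with a difference of -0.54 ± 0.18. Each narrowly missed the threshold by limma, at adjusted p of 0.0563, 0.0601 and 0.0643, so that 0 of 7 members were called against 21.0% of all genes. At an unadjusted p under 0.05 were 3 of 7 members against 37.6% of all genes. The families' ranges overlapped for all 7, whereas they lay apart for 3.30% of all genes with DKO higher and for 6.71% with DKO lower. Lefty2 differed by 0.57 ± 0.39. For Nodal the difference was -0.01 ± 0.14, for Smad7 -0.01 ± 0.14 and for Acvr2b 0.09 ± 0.16. The median of all genes was -0.11, and with median ratio scaling, which removed it (median -0.01), Lefty1 (1.17, adjusted p 0.0344) and Skil (0.41, adjusted p 0.0220) passed by limma while Nodal (0.10) and Smad7 (0.09) changed sign. Without replicate 1 of TKO+Dnmt3a2 the values of Lefty1 and Tdgf1 were 1.30 and -0.63, and both passed (adjusted p 0.0106 and 0.0391 by limma). Fibroblast markers were lower in the DKO family for 12 of 12 (median -0.58), with 0 called. Endoderm markers were lower for 6 of 6 (median -0.92), with 5 called, of which Sox17 reached 1 RPKM only in the TKO family. The part of both marker lists in these differences was not tested.

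Putting any enzyme back, compared with the parent line over both families (8 libraries against 2), called 0 of 7 members by limma, against 3.93% of all genes (1.12% higher, 2.81% lower). None was at an unadjusted p under 0.05 either, against 28.2% of all genes. Tdgf1 was higher by 0.48 ± 0.22 (SE) and Nodal by 0.28 ± 0.17, Acvr2b differed by -0.41 ± 0.20, Lefty2 by -0.38 ± 0.47, Lefty1 by -0.28 ± 0.42, Skil by -0.13 ± 0.12 and Smad7 by 0.09 ± 0.17. The parents weighed on these values in opposite ways. Without TKO the difference was -1.52 for Lefty2 and -0.96 for Lefty1, and without DKO it was 0.66 and 0.33. Without both Dnmt3b1 libraries Smad7 (-0.02) and Skil (0.02) changed sign.

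The 2 families were therefore compared in their own add-back change, as the DKO change minus the TKO change. For Lefty2 this difference was -2.11 ± 0.70 (SE), for Lefty1 -1.28 ± 0.71, for Smad7 -0.74 ± 0.31, for Acvr2b -0.74 ± 0.41, for Nodal -0.42 ± 0.31, for Tdgf1 -0.37 ± 0.74 and for Skil 0.37 ± 0.36. Lefty2 and Smad7 had an unadjusted p of 0.0151 and 0.0407, but by limma the adjusted p was 0.452 and 0.53, with 0 of 7 members and 0% of all genes called (9.07% at an unadjusted p under 0.05). Side by side, Lefty2 stood against its parent at 0.57, 0.49 and 0.85 (log2) in TKO with Dnmt3a1, Dnmt3a2 and Dnmt3b1, and at -1.53, -2.06 and -0.97 in DKO. For Acvr2b these values were 0.10, 0.14 and -0.61 in TKO and -0.76, -0.78 and -0.76 in DKO. The same difference was lower for 11 of 12 fibroblast markers (median -0.81) and 10 of 11 macrophage markers (median -1.61), with 0 called. Over the 11 libraries, which share parent lines, Smad7 correlated with these lists at r = 0.75 and 0.769 and Lefty2 at 0.479 and 0.508. The markers' part in these differences was not tested.

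With the 2 kinds of enzyme set against each other, 2 members passed the test. Tdgf1 fell with Dnmt3b1 relative to the Dnmt3a isoforms by 0.89 ± 0.23 (SE), a fold of 0.541 (adjusted p 0.0295 by limma), and Skil fell by 0.47 ± 0.12, a fold of 0.720 (adjusted p 0.0300 by limma). These 2 of 7 members stand against 20.7% of all genes called in either direction and 7.17% called lower, with 36.7% at an unadjusted p under 0.05. Both Dnmt3b1 libraries were below every Dnmt3a library of the same family, for Tdgf1 and for Skil. How many of all genes are separated in this way was not counted. Smad7 differed by 0.33 ± 0.18, Lefty2 by 0.47 ± 0.49, Acvr2b by -0.42 ± 0.21, Nodal by 0.04 ± 0.18 and Lefty1 by 0.00 ± 0.43, and none of these passed. In the same comparison all 12 fibroblast markers were called higher (median 2.57). All 11 macrophage markers were higher in value, 9 of them called, and so were all 6 endoderm markers (median 0.91), 3 of them called. Of the ES cell markers Sox2, Dppa5a and Utf1 were called lower (-0.85, -0.83 and -0.40), with all 6 lower in value. Values were also taken relative to the mean of the 6 ES cell markers, a scaling chosen after seeing the data. The difference was then -0.39 for Tdgf1 (adjusted p 0.125 by limma) and 0.02 for Skil (0.919). Those of Nodal (0.53, 0.0423) and Smad7 (0.82, 0.00855) passed, but under this scaling so did 7064 of all 14229 genes. Per unit of Pou5f1, the level of Tdgf1 was 0.509 with Dnmt3b1 and 0.624 to 1.19 with the Dnmt3a isoforms in TKO, and 0.382 against 0.414 and 0.476 in DKO. Both calls rested on 2 Dnmt3b1 libraries, and a fit without either leaves 1 in that arm. The difference was then -0.60 for Tdgf1 without TKO+Dnmt3b1 and -1.13 without DKO+Dnmt3b1, and for Skil -0.38 and -0.55. Neither gene passed in these fits, which cannot tell a weaker result from the loss of a library. Tdgf1 also missed the threshold without replicate 1 (0.0551) or 2 (0.0525) of TKO+Dnmt3a1 or without DKO+Dnmt3a2 (0.0600), and Skil without replicate 2 of TKO+Dnmt3a1 (0.0581), DKO+Dnmt3a1 (0.0571) or DKO+Dnmt3a2 (0.0661), as adjusted p by limma. Tdgf1 missed it as well without a filter on low values (0.0568) and in a fit of 9 group means (0.0756), and Skil with each line counted once (0.0551), again as adjusted p by limma.

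**Figure D4:**
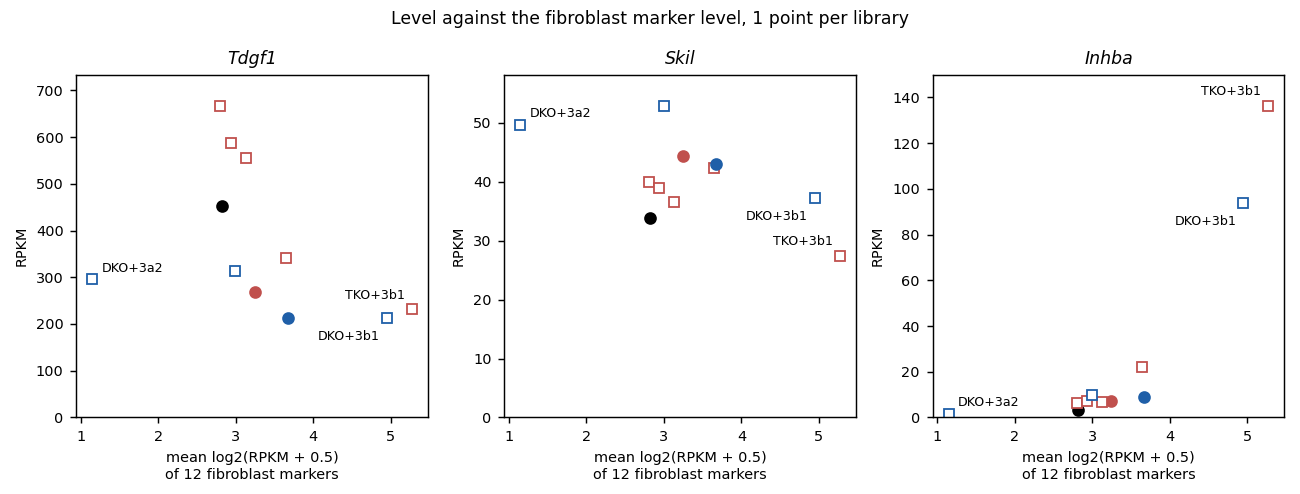
RPKM of Tdgf1, Skil and Inhba (vertical axes, starting at 0) against the mean log2(RPKM + 0.5) of 12 fibroblast markers (horizontal axes), 1 point per library (black WT, red TKO family, blue DKO family, filled circles WT and parent lines, open squares lines with an enzyme put back; 3a2 and 3b1 stand for Dnmt3a2 and Dnmt3b1). The Dnmt3b1 libraries lie at the right with the most fibroblast RNA and 136 and 93.8 RPKM of Inhba, while DKO+Dnmt3a2 lies at the left with 1.68 RPKM.

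The rest of the pathway was read from 36 further genes in 5 groups, of which 29 were tested. The other 7 (Acvr1c, Cfc1, Cer1, Mixl1, Foxa2, Lhx1 and T) stayed under 1 RPKM in every library. Called in TKO against WT, in DKO against WT and in the difference between the families' add-back changes were 0 of 29. At an unadjusted p under 0.05 by limma stood 8, 4 and 3 of them, against 17.2%, 8.30% and 9.07% of all genes. Between the families 1 was called higher in the DKO family and 5 lower, against 6.66% and 14.4% of all genes. Among the lower ones were target genes of Nodal in the early embryo. Eomes, a T-box factor of mesendoderm, read 1.74 to 2.93 RPKM in the TKO family and 0.54 to 1.43 RPKM in the DKO family, and fell by 1.20 ± 0.17 (SE; adjusted p 0.00362 by limma). It kept its call under all 18 alternatives, some of which give the same estimate and are not separate checks. Gsc, a homeobox gene of the organizer, fell by 0.83 ± 0.20. Gsc was low, at 0.43 to 1.72 RPKM in the TKO family and 0.24 to 0.52 in the DKO family. It reached 1 RPKM, and so entered the test, only through the TKO family, so that the filter favoured its call. Also lower were Smad6, an inhibitory Smad that acts mostly on bone morphogenetic protein receptors (-0.76 ± 0.20), and the corepressor Drap1, which binds Foxh1 (-0.52 ± 0.12). Ski, a corepressor of Smads and the relative of Skil, rose by 0.36 ± 0.11. Ski, Smad6, Drap1 and Gsc lost their calls in 14, 11, 7 and 6 of 18 alternatives, and all 4 lost them without DKO+Dnmt3a2 (adjusted p 0.0798 to 0.148 by limma). Of the 6 ES cell markers, 3 were higher and 3 lower in value in the DKO family (median 0.04), and 1 was called. That was Nanog, a core pluripotency factor, which was lower by 0.83 ± 0.20 (adjusted p 0.0234 by limma). Pou5f1 was higher by 0.28 ± 0.09. The farthest of the other 3 groups were not called: Inhba at -0.64 ± 0.51, the activin and bone morphogenetic protein receptor Acvr1 at 0.21 ± 0.17, and Foxh1 at -0.35 ± 0.14. Thus Lefty1, a target of Nodal, was higher in value in the DKO family than in the TKO family, and the target Eomes was lower. Gsc was lower in value too, but entered the test only through the TKO family. WT read 50.7 RPKM of Lefty1, inside the TKO family's range, and 0.31 RPKM of Gsc, inside the DKO family's range. Its 1.71 RPKM of Eomes lay between both ranges. Endoderm markers were lower in the DKO family as well, for 6 of 6 (median -0.92), of which Sox17 reached 1 RPKM only in the TKO family. The part of these markers in these differences was not tested.

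With any enzyme put back 1 of 29 was called, against 3.93% of all genes. Inhbb, the subunit of activin B, rose by 1.15 ± 0.21 (SE; adjusted p 0.0413 by limma). It read 24.1 RPKM in WT, 4.91 in TKO, 6.11 in DKO, 6.91 to 13.4 RPKM in the lines with a Dnmt3a isoform and 23.2 and 19.5 RPKM with Dnmt3b1. The call was lost in 12 of 18 alternatives. Without both Dnmt3b1 libraries the value was 0.80 with an adjusted p of 0.160 by limma. By limma the adjusted p was 0.0630 without a filter on low values, 0.0861 with 9 group means and 0.0560 with each line counted once, and it lay between 0.0620 and 0.137 for the 8 of 10 single left-out libraries that ended the call, which were all but replicates 1 and 2 of TKO+Dnmt3a2.

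With Dnmt3b1 against Dnmt3a 8 of 29 were called higher and 1 lower, against 13.5% and 7.17% of all genes. Inhba rose by 3.99 ± 0.64 (SE), from 1.68 to 22.3 RPKM with Dnmt3a to 136 and 93.8 RPKM, and the activin antagonist Fst by 1.99 ± 0.31. Pmepa1, a feedback inhibitor of transforming growth factor β signalling, rose by 1.25 ± 0.18, the proprotein convertase Furin by 1.19 ± 0.21, Inhbb by 1.07 ± 0.22, Acvr1 by 1.04 ± 0.21, Smad3 by 0.69 ± 0.16 and the ubiquitin ligase Smurf1 by 0.56 ± 0.16. Acvr1b, the type I receptor for Nodal and activin, fell by 0.65 ± 0.19. All passed over all genes by limma (adjusted p 0.00431 to 0.0416). With them 12 of 12 fibroblast, 9 of 11 macrophage and 3 of 6 endoderm markers were called higher, and all markers of these 3 lists were higher in value. Without TKO+Dnmt3b1 or DKO+Dnmt3b1, which leaves 1 library with Dnmt3b1, all 9 missed the threshold but kept their sign. Inhba then differed by 4.05 and 3.93. Smurf1 and Acvr1b lost their calls in 9 and 10 of 18 alternatives, among them without either replicate of TKO+Dnmt3a1, without replicate 2 of TKO+Dnmt3a2 and without DKO+Dnmt3a2 (adjusted p 0.0629 to 0.0892 by limma). The part of these cell types in these calls was not tested.

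The genes whose log2 values followed the members most closely over the 11 libraries were sought among 8860 genes with a mean of 5 RPKM or more. For Lefty1 these were Rpl10l (r = 0.924), Dhdds (0.921) and Csnk1g2 (0.900), ahead of Lefty2 (0.849). Rpl10l, a retrogene for a ribosomal protein, stood at 75.1 RPKM in DKO against 30.1 RPKM (WT) and 25.5 RPKM (TKO). For Nodal they were Bag6 (0.911), Bricd5 (0.896) and Zfp60 (0.866), and for Tdgf1 Dars (0.933), Acp6 (0.925) and Tsfm (0.923). Acp6 stood at 120.4 RPKM in WT against 64.6 RPKM (TKO) and 42.9 RPKM (DKO). Nodal itself correlated with Lefty1 at 0.299, with Lefty2 at 0.309 and with Tdgf1 at 0.066, and Tdgf1 correlated with Lefty1 at -0.641. These are descriptions over 11 libraries that share parent lines.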

How the data were processed

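The deposited table holds RPKM values that the authors computed per gene for 11 libraries; per the labels' protocols, polyadenylated RNA was made into libraries with a TruSeq kit that keeps no strand, so overlapping genes share reads. STAR 2.4.0, bcl2fastq 1.8.4 and mm9 are named in the submitters' processing notes; the counting and the gene lengths are not given in the sources used here. RPKM hold no counts, so log2(RPKM + 0.5) was fitted with limma 3.58.1 (R 4.3.3, trend) over the 14229 genes with 1 RPKM or more in at least 1 library, with Benjamini-Hochberg adjustment over all of them; an adjusted p under 0.05 was a call. Parent lines were compared with WT in a fit of 9 group means, in which the groups with 1 library are assumed to vary like the 2 replicated lines. The other comparisons used 10 libraries, with family and enzyme put back as terms. The difference of add-back changes instead used family, any enzyme put back or none, and their interaction, so differences between enzymes count as scatter there. The fit was run on simulated independent libraries without line differences, which does not test the design of these data. Depth was estimated from the whole-read steps of short transcripts and covers counting error only. Named are the 7 members, the called genes of 5 pathway groups, the largest uncalled gene of a group without calls, and the 3 genes most like Nodal, Tdgf1 and Lefty1; 1 called pathway gene is counted but not reported here. The members and lists were chosen with earlier results of these data known. Alternatives were other scalings, pseudocounts, filters, models and left-out libraries.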

Additional observations from a re-analysis of the deposited data

Results flagged for a closer look

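In 14 sets of libraries (7 genes in 2 families) the outermost library was compared with the rest, and 2 stood apart. For independent libraries of 1 kind, chance gives about 1 in 20. These sets mix different lines, and the TKO family holds 2 lines with 2 libraries each, so that rate need not hold. Acvr2b in TKO+Dnmt3b1 (5.93 RPKM) lay below the other 5 libraries of the TKO family (9.31 to 10.9 RPKM), with a gap of 0.733 of the whole range, beyond Dixon's critical value for 6 libraries. Acvr2b in DKO (14.7 RPKM) lay above the other 3 of the DKO family (8.34 to 8.46 RPKM), with a gap of 0.974 of the range, beyond the critical value for 4. All 7 genes were also searched for add-back libraries that lay on opposite sides of the parent in the 2 families, and only Smad7 was flagged. All 5 of its TKO libraries with an enzyme put back were above their parent and all 3 DKO ones below theirs. The test of that difference gave -0.7428 (log2) with an adjusted p of 0.53 by limma, which did not pass. The share of all genes with this pattern was not counted.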

How the results depend on the processing

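Of 693 recomputed member values, 617 kept their direction and side of the threshold, but this share is no measure of stability. In both comparisons with WT, leaving out another library cannot change a member's difference, so its direction was fixed there. For TKO against WT, 49 genes were called, 12 with median ratio scaling, 16 with quantile normalization, 307 with the replicate block, 319 with an additive model and 0 to 49 without 1 library; Lefty1 reversed under both scalings (-0.115 and -0.0315). For DKO against WT, 0 were called (1181 at an unadjusted p under 0.05 by limma), but 71 without a filter, 60 with the block, and 12 with the additive model, where Smad7 reversed (-0.1011); left-out libraries gave 0 to 0. The block called 2 members there, Lefty1 (adjusted p 0.0383) and Lefty2 (0.0284) by limma.

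Between the families, 2990 genes were called, 1689 with the block, 1802 with 9 group means, 1688 with each line counted once, 1794 without both Dnmt3b1 libraries, and 651 (without DKO+Dnmt3a2) to 3245 (without DKO) without 1 library. The split of 947 higher and 2043 lower became 1576 and 1465 with median ratio scaling and 1504 and 1274 with quantile normalization. Members called were 0 in the main fit and 0 to 2 without 1 library. They were 2 with median ratio scaling (Lefty1, Skil), 1 with quantile normalization (Skil) and 1 with each line counted once (Lefty1). Skil passed without TKO or DKO, which give the same estimate (0.39), since the parent left behind is alone at its level of the enzyme term. Leaving out either Dnmt3b1 library or both likewise gives the same estimate, so these alternatives are not separate checks. Nodal reversed to 0.0956, 0.0379, 0.0061, 0.0061 and 0.0063, and Smad7 to 0.0909, 0.0624, 0.0182, 0.0182 and 0.0118, under median ratio, quantile, 9 group means, each line once and no Dnmt3b1 libraries, as did Acvr2b without the last (-0.015). Without 1 library, Nodal ran from -0.1027 to 0.0567, Smad7 from -0.1839 to 0.093, Acvr2b from -0.0566 to 0.2412 and Inhba from -1.1144 to 0.1532.

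With any enzyme put back, 559 genes were called, 173 without a filter, 1415 with the block, 0 with 9 group means by limma (3868 had an unadjusted p below 0.05), 3 with each line once, 3 without both Dnmt3b1 libraries (where Smad7 and Skil reversed, -0.0183 and 0.0222), and 0 (without DKO) to 867 (without TKO). The higher and lower split of 159 and 400 became 225 and 348 with median ratio scaling and 253 and 392 with quantile normalization. Without 1 library, Lefty1 ran from -0.9551 to 0.3302, Lefty2 from -1.5194 to 0.6646, Smad7 from -0.3278 to 0.4622 and Skil from -0.3364 to 0.0982.

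For Dnmt3b1 against Dnmt3a, 2943 genes were called, 1898 with 9 group means, 7064 with scaling to ES cell markers (chosen after seeing the data; Skil 0.0209 and Acvr2b 0.0777 reversed), and 77 (without TKO+Dnmt3b1) to 3338 without 1 library. Its split of 1923 and 1020 became 1691 and 1817 with quantile normalization. Members called were 2, and 1 without a filter (Tdgf1 lost, adjusted p 0.0568), 1 with the block (Skil lost, 0.0516), 1 with 9 group means (Tdgf1 lost, 0.0756), 1 with each line once (Skil lost, 0.0551), all by limma, and 0 to 2 without 1 library. Nodal and Lefty1 reversed with median ratio scaling (-0.0158 and -0.053) and the block (-0.0631 and -0.2004), and ran from -0.0107 to 0.1071 and from -0.2664 to 0.2342 without 1 library. For the difference of add-back changes, 0 genes were called (1291 at an unadjusted p under 0.05 by limma) and 56 without a filter. The replicate numbers did not pair the libraries (r = 0.0859 over 14229 genes between both lines' replicate differences). Comparisons with WT could not be fitted without WT or that parent, nor the difference of add-back changes without a parent. The causes were not tested.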
